A study of Drosophila melanogaster with 3 samples.

Results

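The JAK-STAT pathway and the Turandot genes of *Drosophila melanogaster* were examined in wild-type embryos that had been injured with a laser, set against embryos left uninjured. The 10 genes were chosen by their place in the pathway: *Stat92E*, *dome*, *hop*, *Socs36E*, *Ptp61F*, *chinmo*, *upd2*, *upd3*, *TotA* and *TotM*. A gene counted as measured when the platform annotation gave a probe that gene's symbol alone. That held for 4 of the 10, *dome*, *Stat92E*, *Ptp61F* and *chinmo*, with 1 probe each, out of 8247 genes measured in all. The other 6, namely the kinase gene *hop*, the feedback inhibitor gene *Socs36E*, the ligand genes *upd2* and *upd3* and the Turandot genes *TotA* and *TotM*, had no probe in the annotation used here and were not analysed here.

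RNA of wounded embryos carried the dye Cy5 and RNA of unwounded embryos carried Cy3 on each of 3 arrays, A, B and C, per the labels. Each array gave 1 ratio per probe. The labels name no age of the embryos, time after injury or separate collections behind the arrays. A p-value below therefore covers the spread among the 3 arrays alone, which may be technical. The dyes were not exchanged on any array, so a dye effect of a probe and wounding cannot be told apart.

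No source used here states which colour is the numerator. A high ratio means more signal in wounded embryos if Cy5 is on top and less if Cy3 is, so values are given as high or low ratios on the log2 scale, where 0 is equal signal. Ratios carry no level, so the order of expression among genes and the labelled tissue could not be checked. In whole embryos, fewer cells that express a gene and less RNA per cell cannot be told apart.

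In this pathway the cytokines of the Unpaired family bind the receptor Domeless, the Janus kinase Hopscotch phosphorylates it, and the transcription factor Stat92E enters the nucleus and switches on targets. Socs36E and the phosphatase Ptp61F hold the signal down. The Turandot genes encode small secreted proteins that fat body makes under stress and infection, and JAK-STAT signalling is known to drive several of them.

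None of the 4 measured members passed the test (limma, a linear model whose variances are moderated across probes, at an adjusted p of 0.05 over all 11887 tested probes), and 1.55% of all tested probes did. *Stat92E* had the lowest ratio of the 4 and *chinmo* the highest, on opposite sides of 0 on all 3 arrays. *dome* and *Ptp61F* lay close to 0. At an unadjusted p under 0.05 the count was 2 of 4 members, *Stat92E* and *chinmo*, beside 18.4% of all tested probes, and at an adjusted p of 0.10 the same pair passed, beside 5.75%. Fitted as gene means, 0 of 4 passed, beside 1.96% of all genes. The sign was the same on all 3 arrays for *Stat92E* and *chinmo*, 2 of 4 members, beside 41.7% of tested probes. The median of the 4 genes was −0.04, against a median of −0.00017 over all 8247 genes, and it was −0.06 on A, 0.06 on B and −0.13 on C.

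*dome* encodes the receptor. Its probe LD46805 had log2 ratios of −0.03 on A, 0.08 on B and −0.25 on C. Array C was the lowest and array B lay on the other side of 0. The mean was −0.07 ± 0.17 (SD, n = 3), a ratio of 0.956 with a 95% interval in limma of 0.831 to 1.10 (adjusted p = 0.716). The arrays do not tell a difference inside this interval from none. The interval is not a limit of detection: the smallest size among all probes that passed was 0.37 on the log2 scale.

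*Stat92E* encodes the pathway's transcription factor. Its probe LP05693 had log2 ratios of −0.82 on A, −0.97 on B and −0.32 on C, which are ratios of 0.565, 0.511 and 0.803. All 3 lay below 0, with arrays A and B close together and array C nearer to 0. The mean was −0.70 ± 0.34 (SD, n = 3), a ratio of 0.614 with a 95% interval of 0.488 to 0.773 (limma adjusted p = 0.0722). The probe missed the threshold although its mean was far out: 28 of the 11887 tested probes had a lower mean. Its SD over arrays was larger than that of all but 4.80% of tested probes, and close to the median SD of 0.368 among the 29 probes with a mean as low as its own or lower, itself included. Of these 29, 10 passed the test. On single arrays 0.320% of tested probes lay below it (A), 0.286% (B) and 4.40% (C). Without array C the mean was −0.90 (limma adjusted p = 0.0567), and without array B it was −0.57 (adjusted p = 0.117). Leaving out array A gave −0.64 (limma adjusted p = 0.312).

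*Ptp61F* encodes a tyrosine phosphatase that acts on Hopscotch and Stat92E. Its probe LP01280 had −0.09 on A, 0.04 on B and −0.0029 on C. The 3 values straddled 0 and were close together. The mean was −0.02 ± 0.07 (SD, n = 3), a ratio of 0.989 with a 95% interval of 0.894 to 1.09 (limma adjusted p = 0.914). The narrow interval makes it the most tightly measured of the 4 members.

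*chinmo* encodes a BTB zinc-finger protein that acts downstream of JAK-STAT signalling in the eye disc and the testis. Its probe SD04616 had log2 ratios of 0.32 on A, 0.24 on B and 0.43 on C, all above 0. The mean was 0.33 ± 0.10 (SD, n = 3), a ratio of 1.26 with a 95% interval of 1.12 to 1.40 (limma adjusted p = 0.0732). In this case the arrays were alike and the size was small, with 368 tested probes higher and a smallest size of 0.37 among all probes that passed.

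A second clone, RE44854, was annotated to both *Kaz-m1*, a gene of a Kazal-type protease inhibitor, and *chinmo*, and so could not be assigned to either. It had 0.06 on A, −0.09 on B and −0.09 on C, with a mean of −0.04 ± 0.09 (SD, n = 3; limma adjusted p = 0.784). Averaged with it, *chinmo* lay at 0.14 instead of 0.33. The high ratio of *chinmo* thus rested on 1 clone.

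**Figure D1:**
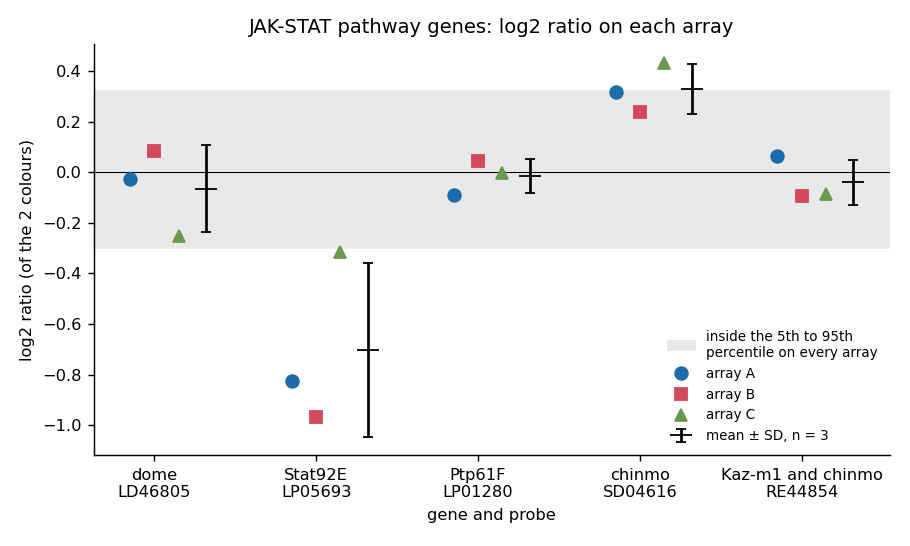
Log2 ratio of the 2 colours (vertical axis) on arrays A, B and C for the probes of the 4 measured members and for the clone annotated to both *Kaz-m1* and *chinmo*; black bars are the mean ± SD over 3 arrays, and the grey band is the range inside the 5th to 95th percentile of non-control probes on every array. *Stat92E* lay below the band on all 3 arrays, from −0.97 to −0.32, and *chinmo* was above 0 on each.

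**Figure D2:**
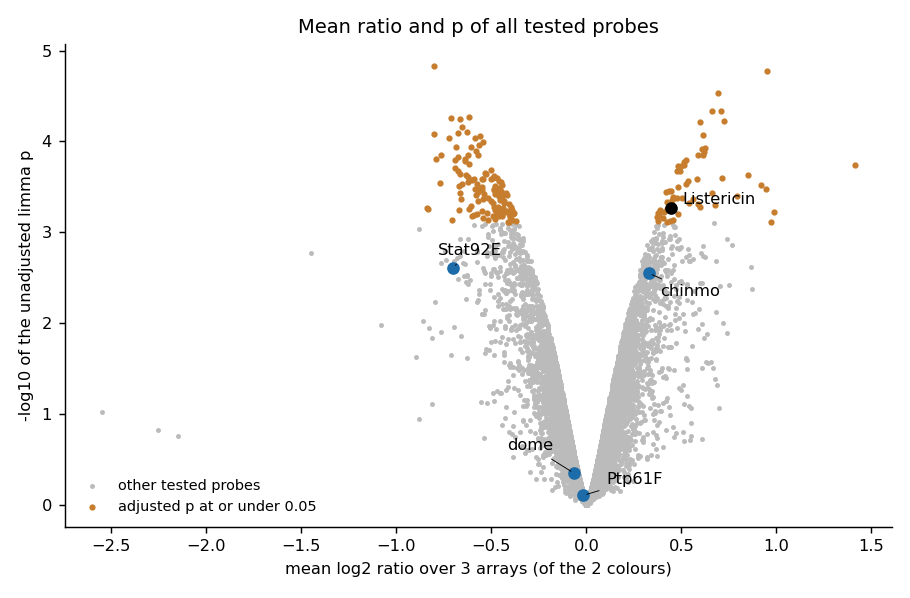
Mean log2 ratio over 3 arrays (horizontal axis) and −log10 of the unadjusted limma p (vertical axis) of 11887 tested probes; orange points passed at an adjusted p of 0.05. *Stat92E* at −0.70 and *chinmo* at 0.33 lay beneath the orange points, *dome* and *Ptp61F* near 0, and the target gene *Listericin* at 0.44 among the orange points.

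Values that go with these ratios were as follows. The probe of *Stat92E* is a clone of the LP library, whose 558 tested probes had a median of 0.02, and 1 of them was lower than *Stat92E*. The *chinmo* probe is from the SD library, with a median of 0.02 over 879 tested probes, of which 26 were higher. Spots that carry plant genes, which should find no fly target, had a median of −0.23 and ran from −2.68 to 0.46. Whether the labelled RNA held any plant RNA was not tested, so they are not taken as a baseline. Of these spots, 18 of 119 lay as low as *Stat92E* or lower. At or above *chinmo* there were 2 of the 119. Spot brightness was not used here, and the part of dim signal in either ratio was not tested.

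Neither *Stat92E* nor the 1-symbol *chinmo* clone was spotted again, so what repeated spots show could be read only from other clones. The array holds 383 clones with an original and a re-amplified spot. Why these clones were re-amplified is unknown here. Their originals often lay far from 0: 114 of the 383 had a size of at least 0.3. The median size over all genes was 0.08, and 369 of the 11887 tested probes lay at or above *chinmo* in mean. What their repeats show thus cannot be carried over to clones spotted once, such as those of *Stat92E* and *chinmo*. Over the 383 clones the 2 mean ratios had a Pearson r of 0.03 and a Spearman rho of 0.10. The points share arrays and clones and are no independent replicates. In 114 clones the original spot had a size of at least 0.3, a limit chosen after the data were seen. The re-amplified spot had the same sign in 72 of these and reached 0.3 the same way in 6. Its median in the direction of the original was 0.03, against a median size of 0.44 for the originals. Among genes with probes of different clone names, 202 probes had a size of at least 0.3. A name with the suffix _rdnd, which the sources do not explain, counted as a different clone. The other clones of the gene had the same sign in 133 cases, with a median of 0.07 in that direction against 0.40 for the probes themselves. In both comparisons the first spot was picked by its size and the other was not. A smaller value at the other spot therefore follows in part from the choice. The share of equal signs without that choice was not counted.

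**Figure D3:**
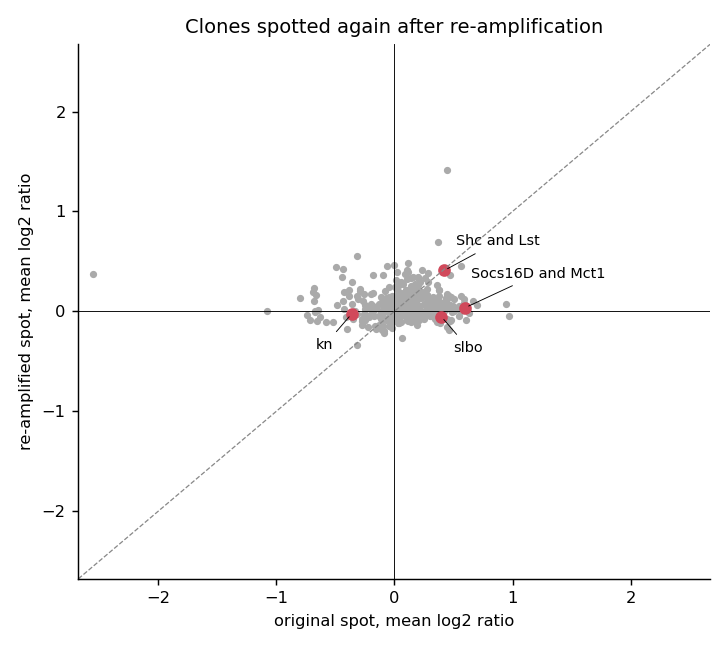
Mean log2 ratio over 3 arrays of the original spot (horizontal axis) and of the re-amplified spot (vertical axis) for 383 clones; the dashed line marks equal values, and red points are clones of genes in the pathway and target lists. The originals of *slbo*, *kn* and the clone annotated to *Socs16D* and *Mct1* lay away from 0 and their re-amplified spots near 0, while those of the clone annotated to *Shc* and *Lst* lay together at 0.42 and 0.41.

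Of 24 further genes that act in or on the pathway, 17 were measured by 18 probes, and 0 of these probes passed the test in limma. At an unadjusted p under 0.05 there were 3, which is 16.7% of the 18 probes and near the 18.4% of all tested probes. The median of the 17 genes was 0.01, with 9 above 0 and 8 below, and their means ran from −0.17 to 0.21. The typical size, a median of 0.08 on the log2 scale, was that of all genes, also 0.08.

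The ligand gene *upd1* had a probe with values on 2 arrays only, 0.06 on array A and 0.06 on array C, and was not tested. Of genes that hold the pathway down, *Socs44A*, a relative of *Socs36E*, had −0.03 ± 0.06, *Su(var)2-10*, the PIAS gene whose protein restrains Stat92E, had 0.02 ± 0.15, and *ken*, which encodes a repressor of a subset of Stat92E targets, had 0.01 ± 0.21 (SD, n = 3 each), with 0.21 on A, −0.21 on B and 0.03 on C. These 4 genes were named for their role after their values were seen.

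At the upper end stood *apt*, a nuclear factor gene that limits Stat92E activity in migrating border cells, at 0.21 ± 0.17 (SD, n = 3; limma adjusted p = 0.253). A clone annotated to both *apt* and *eIF3f2*, AT12040, had a mean of 0.05 ± 0.12 (SD, n = 3). *Mekk1*, a kinase gene that Turandot induction under stress needs, had 0.06 on A, 0.40 on B and 0.05 on C, with array B well above the others and a mean of 0.17. *Cdk4*, which encodes a cell cycle kinase, had 0.13 ± 0.12 (SD, n = 3). None of the 3 passed.

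At the lower end, *RanBP3*, a gene of a Ran-binding protein, had −0.19, −0.12 and −0.21 in the order A, B, C. *CycD*, the cyclin partner of *Cdk4*, had −0.14, −0.15 and −0.16. Both lay below 0 on each array, and neither passed (limma adjusted p = 0.189 and 0.225). *E(bx)*, which encodes the large subunit of the NURF chromatin remodeller, averaged −0.12 ± 0.14 over its pair of probes (SD, n = 3).

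Among the other Turandot genes, 1 of 6 was measured. *TotB*, a stress-induced secreted protein gene, had 0.20 on A, −0.03 on B and −0.05 on C. Array A was high and the others were near 0, and the mean of 0.04 ± 0.14 (SD, n = 3) did not pass (limma adjusted p = 0.814). Its 95% interval ran from −0.14 to 0.22 on the log2 scale. It was the single Turandot gene with a value.

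Of 19 genes listed as reported or candidate targets of Stat92E, 11 were measured by 15 probes, and 1 passed, with a high ratio. The background was 0.513% of all tested probes with a high ratio and 1.03% with a low ratio. *Listericin*, an antibacterial protein gene known to need both JAK-STAT signalling and the peptidoglycan receptor PGRP-LE, had 0.54 on A, 0.42 on B and 0.37 on C. All 3 values were high and close together, and the mean was 0.44 ± 0.08 (SD, n = 3; probe RH62530), a ratio of 1.36 (limma adjusted p = 0.0466). Of 15 alternative settings it passed under 8. Its adjusted p was 0.253, 0.0753 and 0.0805 without array A, B and C, and 0.0655 with each clone library centred. The probe is an RH clone, and RH probes had a median of 0.08 and 22 of the 61 high calls.

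The other targets gave no call. Of all 15 target probes, that of *Listericin* included, 4 had an unadjusted p under 0.05 in limma. This is 26.7%, beside 18.4% of all tested probes. The median of the 11 genes was 0.02, and their means ran from −0.20 to 0.44. *vir-1*, a gene induced by viral infection through Hopscotch, had −0.07 and −0.09 on its 2 probes, and *zfh1*, a transcription factor gene that responds to the pathway in testis stem cells, had −0.01 ± 0.05 (SD, n = 3). *Diedel*, a secreted immune modulator gene, had 0.07, 0.38 and −0.08 in the order A, B, C, with array B apart from the others.

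The probes of 2 targets had been spotted again. *slbo*, the C/EBP gene of border cells, had 0.40 ± 0.11 at its original spot (SD, n = 3; limma adjusted p = 0.0594) and −0.05 ± 0.13 at the re-amplified one. *kn*, which encodes a transcription factor of blood cell and muscle development, had −0.36 ± 0.20 and −0.03 ± 0.03 (SD, n = 3). In both genes the original lay on the same side of 0 on all 3 arrays and the repeat of the same clone lay near 0. *vir-1*, *zfh1*, *Diedel*, *slbo* and *kn* were named after their values were seen.

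**Figure D4:**
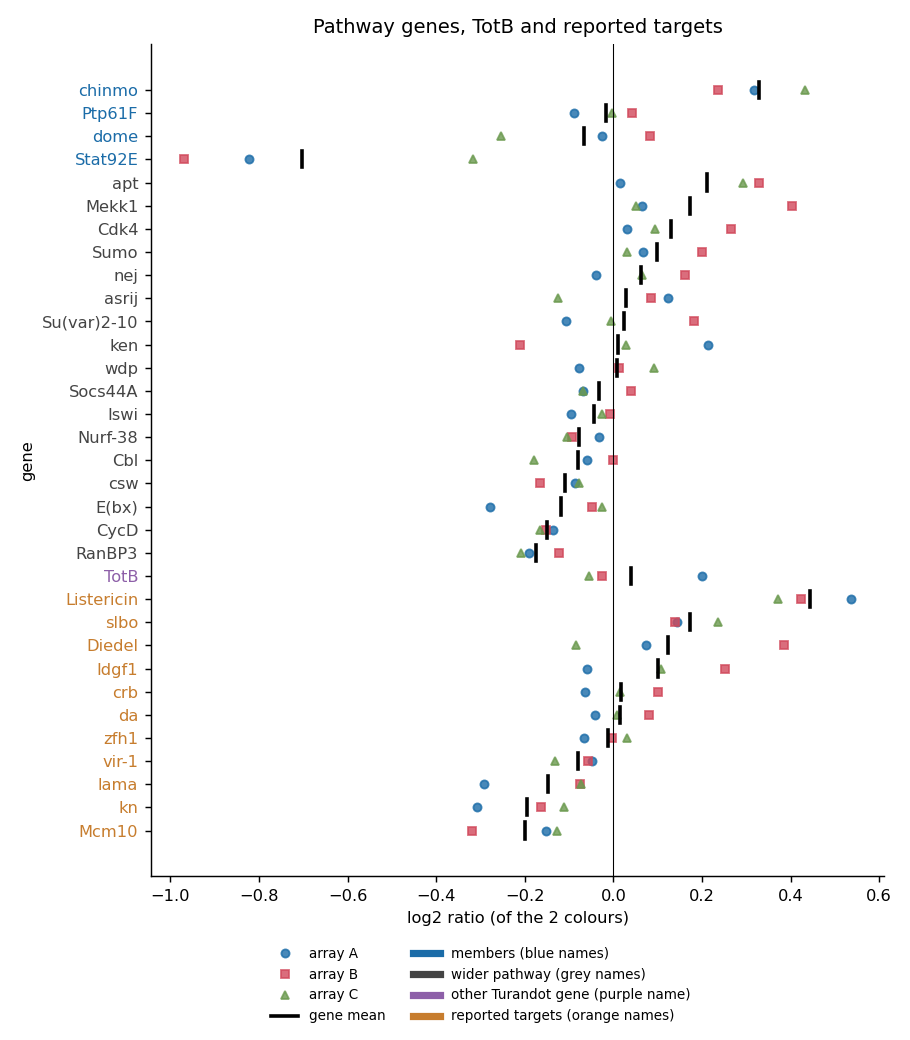
Log2 ratio of the 2 colours (horizontal axis) on arrays A, B and C and gene mean (black bar) for the 4 members, 17 further pathway genes, *TotB* and 11 reported Stat92E targets. Apart from *Stat92E* at −0.70, *chinmo* at 0.33 and *Listericin* at 0.44, gene means lay between −0.20 and 0.21.

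Probes nearest to *Stat92E* in Euclidean distance over the 3 log2 ratios were those of *tau* (RE16764, distance 0.06), *stil* (GH06596, 0.12) and *Myo28B1* (RE19504, 0.15). None of these 3 passed either, and they shared its order of arrays, lowest on B and nearest to 0 on C. They were chosen for closeness to these values, so neither point is a separate result. The *tau* clone RE16764 was spotted again, with −0.74 ± 0.35 at the original and −0.04 ± 0.13 at the re-amplified spot (SD, n = 3). The mean of all 3 probes of *tau* was −0.19 and that of both probes of *Myo28B1* was −0.10. In these 2 genes the low ratio of the chosen probe thus did not carry over in full to the mean, which includes that probe. For *stil* there was 1 probe. Nearest to *chinmo* were *CG11413* (RH08424, distance 0.01), *NAAT1* (RH09883, 0.06) and *Drs* (LP03851, 0.06), the gene of the antifungal peptide Drosomycin. With 11887 probes and 3 arrays, close neighbours exist for most values, and the distances are descriptions.

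Genes listed as markers of cells in which the pathway is known to act were set beside these values. Whether each gene marks its cells in embryos was not tested. Among all tested probes the shares were 18.4% at an unadjusted limma p below 0.05 and 1.55% past the threshold. Of 8 measured haemocyte marker genes 0 had a probe past the threshold, with 2 of 12 probes at an unadjusted p under 0.05 and a median of 0.04. These 2 were spots of *NimC1* that disagreed, LP05465_ReAmp at 0.39 and LP05465_rdnd at −0.19. A clone annotated to both *Hml* and *Muc68D*, GH17783, was in no list and passed with a low ratio, at −0.64. Epidermis markers had 0 of 6 genes (2 of 8 probes, median −0.03), muscle markers 0 of 3 (5 of 10 probes, median 0.21) and trachea markers 0 of 2 (0 of 2 probes, median −0.03). The 5 muscle probes included all 4 of *sls*, which disagreed. RH25277 had −0.34, while GM05288, GM05521 and RH63601 had 0.51, 0.34 and 0.35. Fat body markers had 4 of 8 probes at an unadjusted p under 0.05. Of the 6 measured genes, *Fbp2* at −0.48 and *Yp2* at −0.40 passed with a low ratio, each on 1 probe. The median was −0.02, and *Lsp2* and *Yp3* lay at 0.25 and 0.26. Clones annotated to *Fbp2* and another gene had means of 0.20 (LP02809, with *Bsg*) and −0.09 (LP04789, with *CG1850*). Fat body is a main source of Turandot proteins. Whether the fat body genes listed here mark that tissue in embryos was not tested. The low ratios of *Fbp2* and *Yp2* are therefore not taken as a readout of fat body. The part of the marker genes in any value above was not tested.

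**Figure D5:**
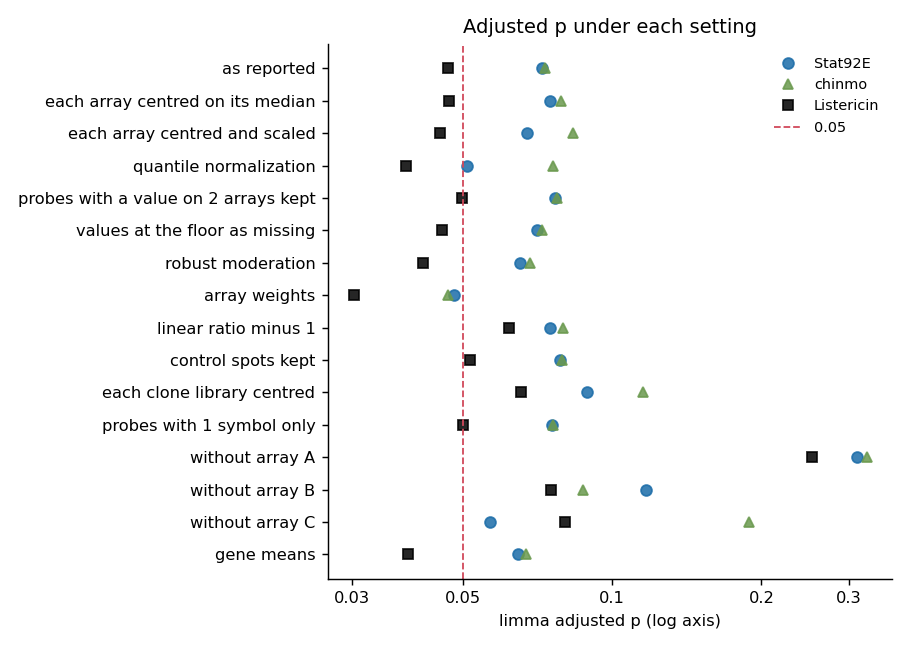
Limma adjusted p (horizontal log axis) of *Stat92E*, *chinmo* and *Listericin* as reported and under 15 alternative settings; the dashed line is 0.05. *Stat92E* and *chinmo* lay left of the line with array weights, at 0.0481 and 0.0466, and right of it in the others, up to 0.312 and 0.326.

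With arrays weighted by how well they fitted, which gave array B the least weight (0.616), both *Stat92E* and *chinmo* passed, at −0.69 and 0.34 (limma adjusted p = 0.0481 and 0.0466), as did more probes overall. Over all 15 alternative settings the adjusted p of *Stat92E* ran from 0.0481 to 0.312 and that of *chinmo* from 0.0466 to 0.326. Both genes kept their sign in all 15, which follows for most settings from their equal sign on the 3 arrays.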

How the data were processed

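Each value in the deposited table is, as read here, a linear two-colour ratio with a minus sign. The authors' normalization, scanner and software: not given in the sources used here. All values were negative, with medians of −1.001 (A), −1.01 (B) and −0.997 (C) and a highest value of −0.01. The scale and the centring near 1 were inferred from this, and the direction is unknown. The sign was removed and log2 taken.

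Of 12144 rows, 160 control spots were left out, and 11887 of the other 11984 probes had values on all 3 arrays. Symbols came from the platform annotation, updated by Entrez identifier. An intercept was fitted per probe in limma 3.58.1 (R 4.3.3) (eBayes, p-values adjusted by Benjamini-Hochberg), on the probes and, separately, on the means of 8247 genes. The test was checked on simulated data. With 3 arrays the smallest p of an exact sign-flip test is 0.25, so the moderated variances carry every call. The number of arrays limits the precision.

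The members and lists were chosen with earlier results of these data known. Rules named all members, list genes past the threshold or otherwise the 3 highest and 3 lowest of the wider pathway list, and the 3 nearest probes of the 2 members farthest from 0. Sequences of the genes or clones were not used here.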

Additional observations from a re-analysis of the deposited data

Results flagged for a closer look

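A probe that entered no gene mean or list, because its clone is annotated to both *Hml* and *Muc68D*, had a low ratio past the threshold. It was among the 11887 tested probes. *Hml* encodes hemolectin, a clotting protein of blood cells, and *Muc68D* a mucin. The clone, GH17783, had −0.73 on A, −0.50 on B and −0.70 on C, a mean of −0.64 ± 0.13 (SD, n = 3; limma adjusted p = 0.0441). The probe annotated to *Hml* alone, LP05709, had −0.28, 0.06 and 0.22 and a mean of 0.00 ± 0.25 (SD, n = 3). Which of the 2 genes the clone reports could not be settled.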

How the results depend on the processing

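Of the 4 members, none passed with all probes, and 2 did (*Stat92E* and *chinmo*) with array weights and at an adjusted p of 0.10, which 5.75% of tested probes reached. Against 61 high and 123 low calls, array weights gave 184 and 257 and an adjusted p of 0.10 gave 300 and 383. Keeping control spots gave 40 high calls, and testing probes with 1 symbol gave 26 and 65. On the linear scale no call was left, 0 and 0, with 2168 probes under an unadjusted p of 0.05 in limma, and likewise 0 and 0 with clone libraries centred (2201 probes). With any 1 array left out there were 0 to 1 high calls and 0 low ones, while 1307 to 2376 probes had an unadjusted p under 0.05. With array weights *Stat92E* was −0.69 and *chinmo* 0.34. Averaged with the clone of 2 symbols, an alternative chosen after seeing the data like those for *Listericin* and the count of gene means, *chinmo* was 0.14. With an array left out, *dome* ran from −0.14 to 0.028 and *Ptp61F* from −0.046 to 0.020; *dome* changed sign without array C and *Ptp61F* without array A, neither being called. *Listericin* lost its call under 7 of 15 settings, with 0.37 to 0.46 on the log2 scale over those that keep all arrays. The cause of these changes was not tested. Each array held both conditions, so each ratio was already a paired comparison within 1 array. With 1 group of arrays, no further pairing could be used.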

Other observations

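Clones annotated to a pathway gene together with another gene were among the tested probes but in no gene mean or list. Those of *Shc*, an adaptor gene of receptor signalling, and *Lst*, the limostatin gene, had means of 0.33 ± 0.15 (RH57813), 0.42 ± 0.50 (RH62559) and 0.41 ± 0.21 at the re-amplified spot of RH62559 (SD, n = 3 each), and none passed (limma adjusted p = 0.102, 0.307 and 0.0974). The clone of *Socs16D*, a relative of *Socs36E*, and *Mct1*, SD11104, had 0.38 on A, 0.88 on B and 0.55 on C, with a mean of 0.60 ± 0.25 (limma adjusted p = 0.0643), and 0.03, 0.06 and 0.02 at its re-amplified spot. The clone of *vir-1* and *Obp56e*, RH36834, had 0.48 on A, −0.28 on B and 0.11 on C (limma adjusted p = 0.758).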
